A study of Mus musculus with 11 samples.

Results

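The genes described here are 10 feedback genes of ERK signalling, taken by name: the Sprouty genes Spry1, Spry2 and Spry4, the Sprouty-related genes Spred1 and Spred2, the MAP kinase phosphatase genes Dusp4, Dusp5 and Dusp6, and the ETS transcription factor genes Etv4 and Etv5. They are 10 of 48709 mouse genes in the count table. All 10 were matched by symbol and Ensembl ID, 9 of them also by the gene name in the TMM-scaled table, and Etv4 was read from the full count table. RNA was sequenced in bulk from the aortic arch of mice at postnatal day 11. Of the 11 libraries, 5 came from Tgfbr2-+/+ wild-type littermates (WT 1 to 5) and 6 from Tgfbr2-G357W/+ mice (Het 1 to 6), made to model the type II form of Loeys-Dietz syndrome, an inherited aortic aneurysm disorder caused by mutation of the type II TGF-beta receptor. The labels name no treatment, and the sources used here give neither strain nor sex. The genes were chosen by name on the values of Het against WT in these libraries, which were already known. Their differences between the genotypes are therefore a description, and the adjusted p-values below, from the fit over all genes, are no independent support.

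Receptor tyrosine kinases, such as the receptors for fibroblast growth factors (FGF), signal through RAS, RAF and MEK to the kinase ERK. ERK activity induces genes that restrain the same pathway: Sprouty proteins act at the level of the receptor and RAS, Spred proteins bring the RAS inhibitor neurofibromin to the membrane, and the phosphatases dephosphorylate ERK itself. Etv4 and Etv5 are ETS-family factors that act downstream of FGF signalling, and transcripts of this kind are widely used as a readout of ERK output.

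The sequences just upstream of the start sites of 3 of the genes are shown because they can be set beside each other: Spry2, whose Het libraries all lay above WT, its paralogue Spry1, which did not pass the test, and Dusp6, which came near the threshold. They are from RefSeq on GRCm38.p6, the 250 bases before the start, read 5′ to 3′ on the strand of the gene. Capitals mark matches, on either strand, to 6 motifs. They are the ETS-type motif with an A in second place (CAGGAA), the ETS-type motif with a C there (CCGGAA), the AP-1 motif (TGANTCA), the cyclic AMP response element (TGACGTCA), the E-box (CACGTG) and the GC box (GGGCGG). No marked matches overlap one another.
Spry2, chr14:105896820-105897069, minus strand: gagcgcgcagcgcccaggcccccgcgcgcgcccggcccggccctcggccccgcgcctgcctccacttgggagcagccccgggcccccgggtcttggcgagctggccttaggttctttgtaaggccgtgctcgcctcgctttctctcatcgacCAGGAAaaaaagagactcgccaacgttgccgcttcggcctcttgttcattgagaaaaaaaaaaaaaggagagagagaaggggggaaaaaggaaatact
Spry1, chr3:37639697-37639946, plus strand: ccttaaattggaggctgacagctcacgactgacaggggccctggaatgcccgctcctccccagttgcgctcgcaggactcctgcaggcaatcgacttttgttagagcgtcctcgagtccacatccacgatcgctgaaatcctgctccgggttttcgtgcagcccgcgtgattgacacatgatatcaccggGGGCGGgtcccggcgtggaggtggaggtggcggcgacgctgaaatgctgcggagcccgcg
Dusp6, chr10:99262981-99263230, plus strand: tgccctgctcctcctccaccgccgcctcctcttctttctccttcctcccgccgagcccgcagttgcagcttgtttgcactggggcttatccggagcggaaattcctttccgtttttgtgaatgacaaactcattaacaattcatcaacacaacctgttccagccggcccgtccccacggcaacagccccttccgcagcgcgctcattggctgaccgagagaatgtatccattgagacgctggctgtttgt
The Spry2 window held 1 match to the A form of the ETS-type motif, which begins 98 bases before the start, and the Spry1 window held 1 GC box at 60 bases. The Dusp6 window held none of the 6 motifs. The A form was also in the Spred1 window, at 236 bases, and in that of the second Etv5 start, at 57 bases. It was thus not in the Spry2 window alone. The bases after those Spred1 and Etv5 starts were, however, found in no annotated transcript (GENCODE M21), unlike those after the Spry2 start. Of all 32851 promoter windows of this length, 25.7% held the A form of the ETS-type motif and 32.7% a GC box. The share was 12% for the C form, 6.75% for AP-1, 6.02% for the E-box and 1.55% for the cyclic AMP response element. The table held entries for 7 of the 10 genes, at 8 start sites, and Spry4 was not among them. None of those 8 windows held the C form, an AP-1 motif, a cyclic AMP response element or an E-box. A match, or its absence, describes only the letters in this window.

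Total counts were 13113467 to 19327935 per library. A count of 0 allows up to 3 counts, which is 0.154 to 0.230 CPM (counting error only). The smooth muscle markers Acta2 and Myh11 were abundant in every library, and the 7 endothelial markers summed to 433 to 590 CPM in WT and 435 to 714 CPM in Het, so both labelled cell types were detected. The G357W allele cannot be told from the wild-type allele by counts per gene, so the level of Tgfbr2 (41.3 CPM in WT, 38.9 CPM in Het) does not check the labels. Every WT library, Het 1 and Het 2 expressed Xist (58.3 to 78.4 CPM), and Het 3 to 6 had at most 0.734 CPM of it and 86.3 to 110.3 CPM of the Y-linked Ddx3y. Sex and genotype are thus partly confounded, and the main results are also given with a sex score as a covariate or in the 7 Xist-positive libraries, 5 WT and 2 Het. The deposited column names carry an unexplained number, 7 in 4 of 5 WT and 6 in 4 of 6 Het columns.

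Spry2 and Spry4 rose in Het, and no tested member of the family was called lower. Of the 10 genes, 8 passed the filter on low counts and were tested, of which 2 rose, 0 fell and 6 did not pass an adjusted p of 0.05 (edgeR's quasi-likelihood test with Benjamini-Hochberg adjustment over 14757 genes). In the same fit 5.03% of all tested genes were called, 2.65% higher and 2.38% lower. At an unadjusted p under 0.05, 4 members were higher and 0 lower, against 9.55% and 9.85% of all tested genes. DESeq2 called 3 members higher and 0 lower (4.43% and 4.34% of all its tested genes), and limma voom 2 and 0 (2.85% and 2.43%). At an adjusted p under 0.1, edgeR called 4 higher and 0 lower, against 4.37% of all tested genes in each direction. With the sex score 1 member was called higher and 0 lower (0.413% of all tested genes in each direction), and so it was in the Xist-positive libraries (0.122% and 0.0962%). The median log2 fold change of the 8 genes was 0.48, against -0.0046 over all tested genes, with 6 of 8 above 0 (49.2% of all tested genes). In bulk tissue a change in RNA per cell cannot be told apart from a change in the number of the cells that express a gene.

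**Figure D1:**
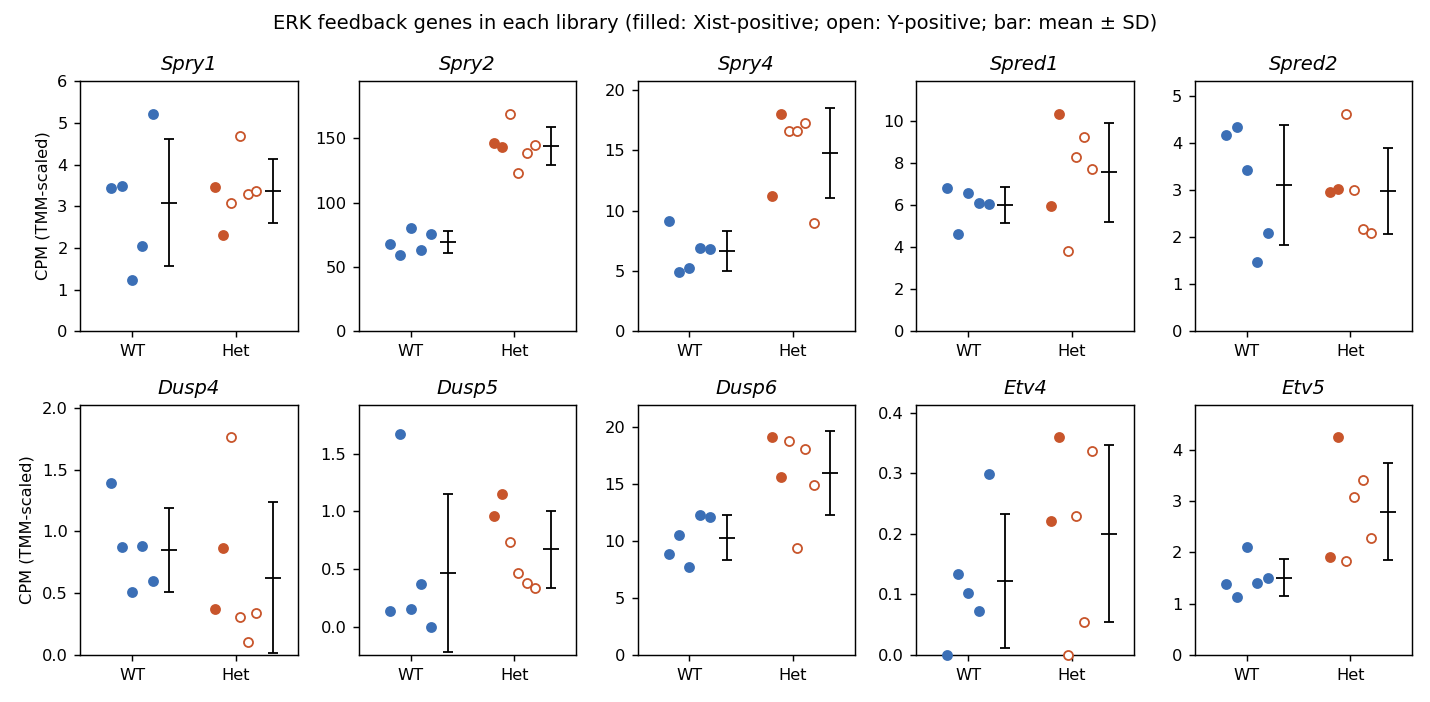
TMM-scaled CPM of the 10 genes in each library (points; filled for the 7 Xist-positive and open for the 4 Y-positive libraries), with the mean and SD of each group beside them; each panel has its own linear axis. Every Het library lies above every WT library for Spry2, while the groups overlap for the other 9 genes.

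Spry2 (ENSMUSG00000022114, chr14:105891947-105896819, minus strand, GRCm38) inhibits receptor tyrosine kinase signalling to RAS. It was at 67.6, 59.6, 80.4, 63.2 and 75.7 CPM in WT 1 to 5 and at 146.7, 142.9, 169.2, 123.1 and 138.4 CPM in Het 1 to 5, with 144.8 CPM in Het 6. The groups did not overlap, and the lowest Het library, Het 4, stood above the highest WT library, WT 3. Over all tested genes, 2.41% had every Het library above every WT library. The WT mean of 69.3 ± 8.63 CPM (SD, n = 5) compared with a Het mean of 144.2 ± 14.9 CPM (SD, n = 6), a log2 fold change of 1.06 ± 0.10 (SE, edgeR adjusted p = 1.53e-05), or 2.08-fold. Among the members Spry2 was the most even within groups, with a coefficient of variation of 12.5% in WT and 10.4% in Het. The Xist-positive libraries Het 1 and Het 2 (142.9 to 146.7 CPM) lay inside the range of the Y-positive Het 3 to 6 (123.1 to 169.2 CPM). The log2 fold change was 1.09 with the sex score (adjusted p = 0.00121) and 1.07 in the Xist-positive libraries alone (adjusted p = 0.0135). With the column-name number as covariate it was 1.06 again. Spry2 passed in all 30 alternatives, with values of 0.98 to 1.27. These count the main fit read at an adjusted p under 0.1, which Spry2 could not fail.

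Spry4 (ENSMUSG00000024427, chr18:38586247-38601415, minus strand), another Sprouty inhibitor of the pathway, was at 9.12, 4.95, 5.28, 6.90 and 6.86 CPM in WT 1 to 5. In Het 1 to 6 it was at 11.2, 18.1, 16.6, 16.6, 17.3 and 8.95 CPM. Of the 6 Het libraries, 5 exceeded every WT library, and Het 6 fell just under WT 1. The mean went from 6.62 ± 1.66 CPM (SD, n = 5) to 14.8 ± 3.75 CPM (SD, n = 6), a log2 fold change of 1.16 ± 0.21 (SE, edgeR adjusted p = 0.00459). The estimate hardly moved with sex, at 1.17 with the score (adjusted p = 0.0781) and 1.15 among Xist-positive libraries (adjusted p = 0.158), but the call was lost in both. It was also lost with an endothelial marker score as covariate (0.92, adjusted p = 0.109) and with a cell cycle marker score (0.94, adjusted p = 0.761), and it passed in each of the 11 fits that left out 1 library.

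Spry1 (ENSMUSG00000037211, chr3:37639947-37644598, plus strand), the third Sprouty gene measured, was at 3.44, 3.48, 1.23, 2.05 and 5.22 CPM in WT 1 to 5, and its Het libraries, between 2.30 and 4.68 CPM, lay inside that range. Its log2 fold change was 0.13 ± 0.32 (SE, adjusted p = 0.872), so a change as large as that of Spry2 would lie more than 2 SE away. The sign changed with the sex score (-0.07) and without WT 3 (-0.08). Reads of Spry1 and of Gm42922 on the other strand, which shares 710 exon bases with it, cannot be told apart in these unstranded libraries.

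The Spred genes did not pass. Spred1 (ENSMUSG00000027351, chr2:117121374-117182279) recruits neurofibromin to RAS at the membrane. It was at 6.81, 4.61, 6.56, 6.09 and 6.04 CPM in WT 1 to 5 and at 5.97, 10.4, 3.81, 8.29, 9.25 and 7.74 CPM in Het 1 to 6. The Het libraries spread on either side of WT, with 4 of 6 above every WT library and Het 3 below all of them, and the log2 fold change was 0.33 ± 0.23 (SE, adjusted p = 0.462). Spred2 (ENSMUSG00000045671, chr11:19924375-20024026), with the same role, was at 1.47 to 4.35 CPM in WT and 2.09 to 4.62 CPM in Het. Its log2 fold change was -0.07 ± 0.30 (SE, adjusted p = 0.940), and its sign differed among the 30 alternatives, 20 of which were negative.

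Of the 3 phosphatase genes, Dusp6 came nearest to the threshold. Dusp6 (ENSMUSG00000019960, chr10:99263231-99267489) encodes a cytoplasmic phosphatase selective for ERK. It was at 8.86, 10.6, 7.74, 12.3 and 12.1 CPM in WT 1 to 5 and at 19.1, 15.6, 18.8, 9.37, 18.1 and 14.9 CPM in Het 1 to 6. Again 5 of 6 Het libraries were above every WT library, but here the low one was Het 4, which lay among the WT libraries. Dusp6 averaged 10.3 ± 1.98 CPM over the 5 WT and 16.0 ± 3.66 CPM over the 6 Het libraries (SD), with a log2 fold change of 0.64 ± 0.19 (SE, edgeR adjusted p = 0.0614). Without Het 4 it passed (0.75, adjusted p = 0.0147), as it did with DESeq2 (0.64, adjusted p = 0.0182) and with a brown fat marker score as covariate (0.65, adjusted p = 0.0489). Its log2 fold change was 0.75 with the sex score (adjusted p = 0.250) and 0.76 among Xist-positive libraries (adjusted p = 0.273), without passing.

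Dusp4 and Dusp5, whose products are nuclear phosphatases, were near the limit of detection. Dusp4 (ENSMUSG00000031530, chr8:34807297-34819894) had 8 to 21 counts in WT and 2 to 24 in Het, or 0.513 to 1.39 CPM and 0.108 to 1.76 CPM. Its log2 fold change was -0.46 ± 0.57 (SE, adjusted p = 0.727). Of the Het libraries 4 were below every WT library, while Het 3 was above all of them and held 24 of the 52 Het counts. Dusp5 (ENSMUSG00000034765, chr19:53529109-53542431) had 2, 25, 3, 5 and 0 counts in WT 1 to 5 and 5 to 16 in Het, and it was not tested. Of its 35 WT counts 25 were in WT 2, so no difference in Dusp5 is read from these counts. In addition, 547 of its exon bases overlap an antisense gene.

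The ETS factor genes were low. Etv5 (ENSMUSG00000013089, chr16:22381309-22439719) was at 1.39, 1.14, 2.10, 1.39 and 1.49 CPM in WT 1 to 5 and at 1.92, 4.24, 1.83, 3.07, 3.41 and 2.29 CPM in Het 1 to 6. Het 1 and Het 3 fell under WT 3, and the other 4 Het libraries stood above every WT library. Etv5 averaged 1.50 ± 0.360 CPM over the WT and 2.79 ± 0.949 CPM over the Het libraries (SD, n = 5 and 6), a log2 fold change of 0.89 ± 0.29 (SE, edgeR adjusted p = 0.0990). It passed an adjusted p of 0.05 in none of the alternatives, DESeq2 included (adjusted p = 0.0531). Etv4 (ENSMUSG00000017724, chr11:101769742-101785371), the other member of this ETS subfamily here, had 0 to 4 counts per WT library and 0 to 5 per Het library. It was not tested, and both groups were at or about the limit of detection.

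**Figure D2:**
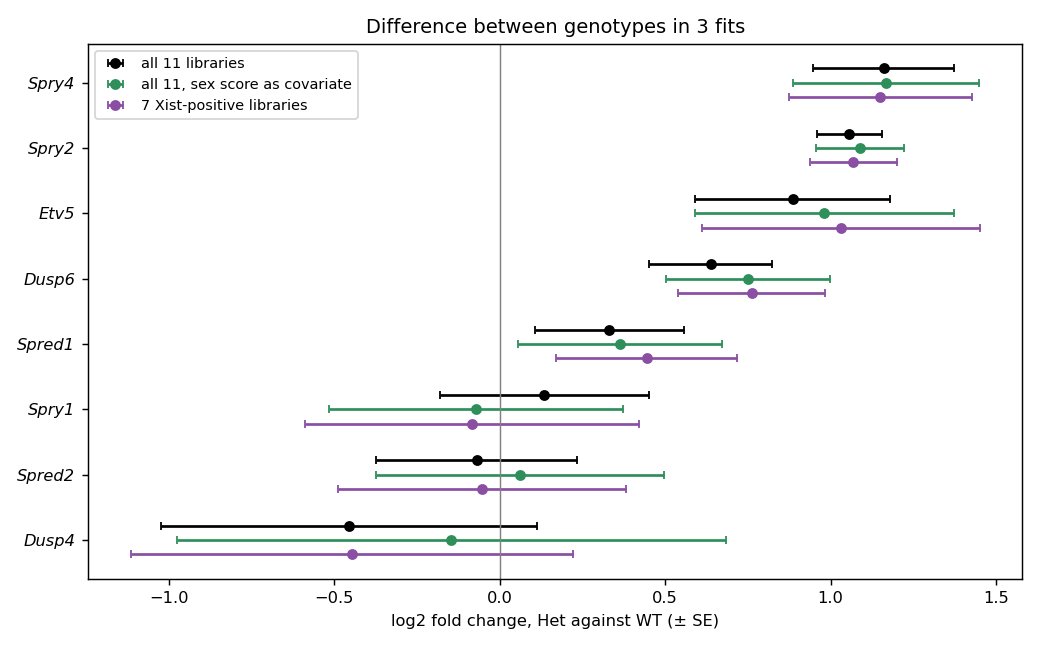
Log2 fold change of Het against WT with its SE for the 8 tested genes, in all 11 libraries, with the sex score as a covariate, and in the 7 Xist-positive libraries. Spry4, Spry2, Etv5 and Dusp6 keep values between 0.64 and 1.17 in the 3 fits, and Spry1 and Spred2 lie near 0.

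Levels were compared between genes as CPM per kilobase of merged exons, where merged exons are all annotated exonic bases of a gene. Spry2 was the most abundant of the 10 in both groups, with a mean of 33.2 ± 4.13 CPM per kb over the 5 WT libraries and 69.1 ± 7.15 over the 6 Het libraries (SD). Dusp6 was next, at 3.29 ± 0.633 in WT and 5.10 ± 1.17 in Het. Spry2 was thus 10.1-fold above Dusp6 in WT and 13.5-fold in Het, with no overlap of libraries. In WT, Dusp6 stood clear of Spry4 (1.39 ± 0.348 CPM per kb), and below that Spry1, Spred1, Spred2, Etv5, Dusp4 and Dusp5 followed with each neighbour overlapping the next. In Het, Spry4 (3.11 ± 0.789 CPM per kb) overlapped Dusp6 and no longer overlapped Spry1 (1.16 ± 0.265). Spry2 carried 93.1% ± 1.92 of the summed Sprouty level in WT and 94.1% ± 1.38 of it in Het (SD over 5 and 6 libraries), ranges that overlap. The summed level of the 3 Sprouty genes was 30.8 to 40.0 CPM per kb in WT and 64.1 to 85.6 in Het, that of Dusp4, Dusp5 and Dusp6 2.72 to 4.38 and 3.29 to 6.93, and that of the 2 Spred genes 1.22 to 1.90 and 1.52 to 2.18. Only the Sprouty sum did not overlap among these 3 sums.

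**Figure D3:**
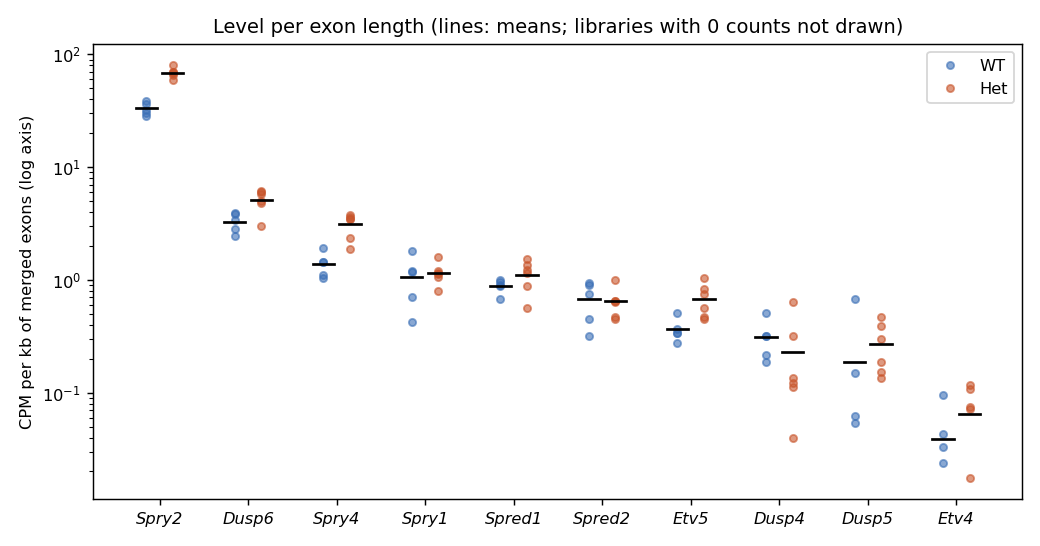
CPM per kilobase of merged exons on a log axis for the 10 genes, ordered by their WT mean, with each library as a point and group means as lines; libraries with 0 counts are not drawn. Spry2 lies 10.1-fold above the next gene, Dusp6, in WT.

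The genes were then compared within genotype, which does not use the difference between the groups. After each group's mean was taken off, log2 CPM was correlated for the 28 pairs of the 8 tested genes over 11 libraries. The median Pearson r was -0.03, and 12 of 28 pairs were positive. The highest was Spred1 with Etv5 (r = 0.83, permutation p = 0.00412, adjusted p = 0.115 over 28 pairs; Spearman's rho = 0.84, permutation p = 0.00589, adjusted p = 0.165). Leaving out Het 3 and WT 2, the libraries farthest from the median in Spred1, gave r = 0.84, and within the columns numbered 6 and 7 r was 0.91 and 0.89. No pair passed the adjustment. The 2 genes that rose showed no such relation with each other over the 11 libraries (Spry2 with Spry4, r = -0.05). Within the columns numbered 6 and 7 their r was -0.66 and 0.31, opposite in sign. The low Het libraries differed between genes: Het 4 for Spry2 and Dusp6, Het 6 for Spry4, Het 3 for Spred1 and Etv5.

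Other genes of the pathway were read from 8 lists of 126 genes, of which 125 were matched and 105 tested. Of these 4 rose and 2 fell, with a median log2 fold change of 0.09. Read against 2.65% and 2.38% of all tested genes, that is close to the background share. The counts at an unadjusted p under 0.05 given for these lists are to be read against the 9.55% higher and 9.85% lower of all tested genes at that threshold, and those by DESeq2 against its 4.43% and 4.34%. The lists, like the family, were drawn up with earlier results of these data known.

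Upstream of RAS, the FGF ligand Fgf1 and the FGF receptor Fgfr2 rose, while the more abundant receptor Fgfr1 did not pass. Of 4 tested FGF ligands 1 rose: Fgf1, which binds all FGF receptors, was at 9.89 to 20.0 CPM in WT and 20.9 to 44.6 CPM in Het, without overlap (log2 fold change 1.31 ± 0.23, SE, edgeR adjusted p = 0.00399). Fgf2 was at 0.10 ± 0.20 (adjusted p = 0.844), and it shares 640 exon bases with Nudt6 on the other strand. Of 17 tested receptor tyrosine kinases 1 rose and none fell in edgeR (2 higher and 1 lower at an unadjusted p under 0.05, and 1 and 1 by DESeq2). It was Fgfr2, at 4.18 to 12.9 CPM in WT and 18.3 to 37.3 CPM in Het, again without overlap. Its log2 fold change was 1.72 ± 0.27 (SE, edgeR adjusted p = 0.00149). As Fgf1 and Fgfr2 did, 2.41% of all tested genes had every Het library above every WT library. Fgfr1 averaged 85.3 CPM in WT and 91.8 CPM in Het (0.11 ± 0.10, SE, edgeR adjusted p = 0.635). Fgfr3 was at 0.08 ± 0.30 (SE, edgeR adjusted p = 0.926). The most abundant receptors per kilobase, Axl (-0.10 ± 0.08) and the PDGF receptor Pdgfrb (0.07 ± 0.07), did not pass. Of 14 other tested ligands 1 rose and 1 fell in edgeR (6 higher and 1 lower at an unadjusted p under 0.05, and 3 and 1 by DESeq2). DESeq2 added Pdgfd (0.26, adjusted p = 0.0421) and Egf (1.63, adjusted p = 0.0273), the latter named after its value was seen and at a mean of 0.454 CPM in WT and 1.40 CPM in Het. Pdgfa, a ligand of PDGF receptors, rose (60.1 to 90.8 CPM on average, log2 fold change 0.59 ± 0.12, adjusted p = 0.00979). Igf1, the ligand of the insulin-like growth factor receptor, fell from 1022 ± 178.6 CPM (SD, n = 5) to 445.7 ± 96.3 CPM (SD, n = 6), with no overlap (2.2% of all tested genes had every Het library below every WT library) and a log2 fold change of -1.20 ± 0.14 (SE, edgeR adjusted p = 1.88e-04). With the sex score, Fgf1 and Igf1 passed, and Fgfr2 and Pdgfa did not (adjusted p = 0.0553 and 0.263). In the Xist-positive libraries Fgf1 passed, and Igf1, Fgfr2 and Pdgfa did not (log2 fold changes -1.05, 1.57 and 0.51, adjusted p = 0.124, 0.120 and 0.348). The call of Fgf1 was lost in 4 of 30 alternatives: the column-name number (adjusted p = 0.0535), the endothelial score (adjusted p = 0.0599) or the cell cycle score (adjusted p = 0.793) as covariate, and without WT 1 and WT 2 (1.18, adjusted p = 0.0510). With the cell cycle score Igf1, Fgfr2 and Pdgfa did not pass either (adjusted p = 0.287, 0.628 and 0.877), and with the endothelial score Pdgfa did not (adjusted p = 0.0695). Pdgfa shares 813 exon bases with an antisense gene.

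None of the 22 tested adaptor and RAS-RAF-MEK-ERK genes was called by edgeR, DESeq2 or limma voom, and at an unadjusted p under 0.05 there were 0 higher and 1 lower. Their log2 fold changes ran from -0.44 to 0.78 with a median of -0.05, and the most abundant per kilobase were Nras (-0.19 ± 0.16) and Araf (-0.18 ± 0.10). Of 18 other tested inhibitors of the pathway none was called by edgeR or limma voom (1 higher and 3 lower at an unadjusted p under 0.05), and DESeq2 called 0 higher and 2 lower. The most abundant were Pebp1, which inhibits RAF (0.03 ± 0.10), and Errfi1, which inhibits the EGF receptor (-0.27 ± 0.11). Of 5 other tested dual-specificity MAP kinase phosphatases 0 rose and 1 fell: Dusp10, which acts mainly on JNK and p38, went from 54.8 to 31.1 CPM on average (log2 fold change -0.82 ± 0.22, SE, edgeR adjusted p = 0.0424). Its groups overlapped, and the call was lost in 19 of 30 alternatives, 7 of them fits without 1 library (replicate 1, 2 or 5 of WT, or 2, 3, 5 or 6 of Het; adjusted p up to 0.119). Dusp8 and Dusp1, the most abundant, had values of 0.24 ± 0.15 and 0.24 ± 0.35.

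Further outputs of ERK gave few calls. Of 12 other tested ERK-responsive genes none was called by edgeR or limma voom, 2 were higher and 1 lower at an unadjusted p under 0.05, and DESeq2 called 1 higher. Egr1, an immediate early factor named after its value was seen, was at 0.82 ± 0.24 (SE, edgeR adjusted p = 0.0589). It was the gene that DESeq2 called (0.81, adjusted p = 0.0154). The abundant immediate early genes Ier2 and Ier3 were at 0.12 ± 0.32 and 0.14 ± 0.28. Of 13 other tested ETS factors 1 rose and 0 fell in edgeR (1 and 1 at an unadjusted p under 0.05 and by DESeq2). It was Etv1, the third gene of the subfamily of Etv4 and Etv5. Etv1 was at 3.36 to 6.02 CPM in WT and between 7.77 and 10.005 CPM in Het, without overlap. Over all tested genes, 2.41% had every Het library above every WT library. The log2 fold change of Etv1 was 0.88 ± 0.17 (SE, edgeR adjusted p = 0.00656). Its call was lost with the sex score (0.72, adjusted p = 0.199), among Xist-positive libraries (0.73, adjusted p = 0.427) and with the cell cycle score (0.67, adjusted p = 0.795).

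**Figure D4:**
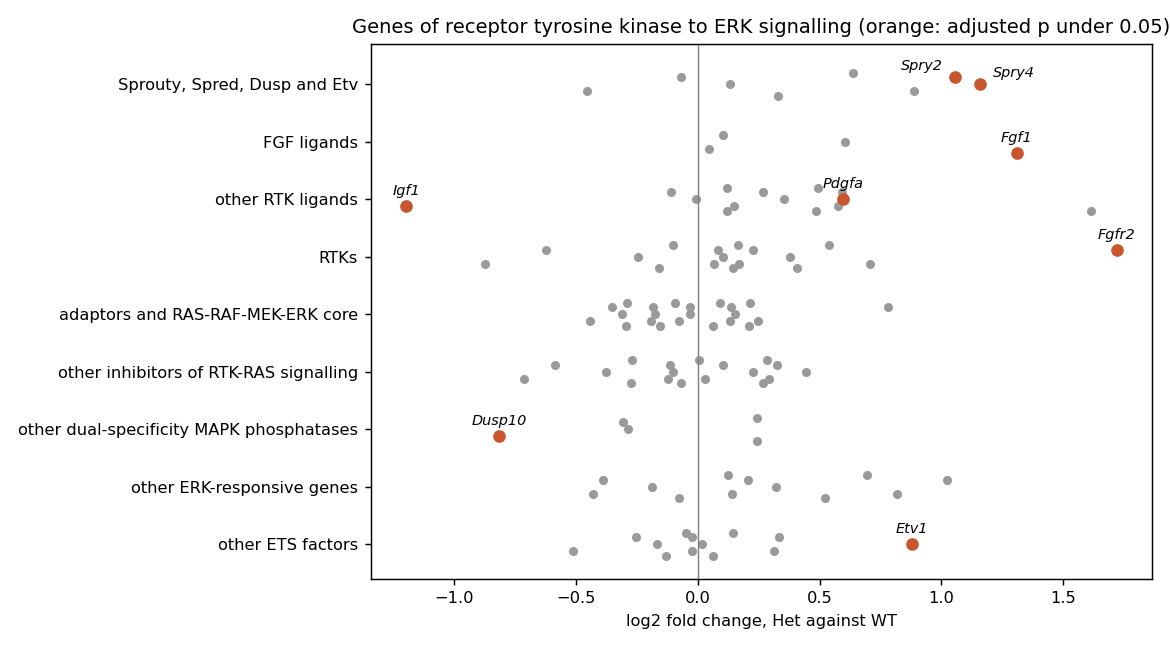
Log2 fold change of Het against WT for the tested genes of the family and of the 8 pathway lists, 1 point per gene, orange where the adjusted p was under 0.05 (edgeR). Beside Spry2 and Spry4, Fgf1, Fgfr2, Pdgfa and Etv1 are called higher, Igf1 and Dusp10 lower, and the adaptor and RAS-RAF-MEK-ERK core has no called gene.

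Marker genes of several cell types were measured beside these values. The 6 cell cycle markers summed to 96.0 to 207.7 CPM in WT and 185.0 to 268.4 CPM in Het. Of these 5 of 6 rose, against 2.65% of all tested genes, so that proliferation markers moved with genotype as Spry2 and Spry4 did. With the cell cycle score as covariate 17 of 14757 tested genes passed in all, Spry2 among them (1.27 ± 0.17, SE, edgeR adjusted p = 0.0136). The 9 skeletal muscle markers summed to 21.3 to 43.0 CPM in WT and 8.82 to 16.5 CPM in Het. Most of that sum was Tnnt3 (mean 26.95 CPM in WT, 8.75 CPM in Het). Of the 4 tested, 2 were lower, Tnnt3 and Tnni2, against 2.38% of all tested genes. Mylpf (log2 fold change 0.07 ± 0.26, SE) and Acta1 (0.55 ± 0.39) did not pass. The rest, Myh1, Myh3, Myh4, Myh8 and Ckm, were too low to be tested. With a skeletal muscle score as covariate Spry2 and Spry4 passed. Brown fat markers ranged from 746.4 to 2686 CPM in WT and 294.4 to 2028 CPM in Het. Of the 7 endothelial markers, 6 had a log2 fold change above 0 (49.2% of all tested genes), with a median of 0.23. None of them was called by edgeR. Pecam1, the most abundant of the 7, was at -0.28 ± 0.15 (SE), so their summed level does not show that lean. The 7 T cell and thymus markers reached 31.4 CPM in 1 Het library and were at most 9.40 CPM in WT. The 5 chondrocyte markers summed to 9.25 to 16.4 CPM in WT and 32.2 to 68.1 CPM in Het, without overlap, but Acan alone made up most of the Het sum. Matn1 was at 0 in every library. Of the tested pair Acan was higher (mean 5.54 CPM in WT, 47.8 CPM in Het) and Sox9 lower (6.55 CPM in WT, 2.94 CPM in Het). The part of these cell types in the levels of the family was not tested beyond the covariate fits.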

How the data were processed

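Total RNA of 11 aortic arches was sequenced as single reads from unstranded Nextera XT libraries, pooled over a pair of runs, per the labels' protocols. STAR 2.5.2a, limma, edgeR, DESeq2 and GRCm38 appear without roles in the submitters' processing notes; the sources used here do not name the counter or annotation. Deposited counts are whole numbers for 48709 mouse genes; 24 spike-in or transgene rows were left out. The authors' TMM-scaled signal (19629 rows, deposited) differed from the CPM recomputed here by a ratio of 0.994 to 1.01 for the members and served for an alternative test.

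Counts were filtered by filterByExpr (minimum count 10, minimum total 15), which left 14757 genes, and scaled by TMM (factors 0.979 to 1.03). Het was tested against WT in all 11 libraries with edgeR 4.0.16 (R 4.3.3), robust quasi-likelihood, Benjamini-Hochberg adjusted p under 0.05. The SE is the log2 fold change over the square root of its F statistic. The p-values measure the spread between libraries, each taken as 1 animal. Correlations were tested with 100000 permutations within groups, two-sided. Gene positions and lengths are from GENCODE M21 (GRCm38), and symbols were matched for 48349 IDs. Promoter sequences are from RefSeq.

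Members and lists were chosen with earlier results of these data known. Named were all members, called genes of the 8 pathway lists, the 2 most abundant per kilobase in each, and marker genes. Egr1, Egf, Fgfr1 and Fgfr3 were added later. The pathway lists hold FGF ligands, other ligands, receptor tyrosine kinases, the adaptor to ERK core, other inhibitors, other phosphatases, other ERK-responsive genes and other ETS factors; 11 marker lists cover smooth muscle, endothelial, fibroblast, skeletal and cardiac muscle, brown fat, T cell, macrophage, nerve, chondrocyte and cycling cells. Alternatives were other scalings, DESeq2 1.42.0, limma 3.58.1 (voom, and trend on log2 of the deposited signal plus 1 or 0.5), other filters, a threshold of 0.1, a replicate block, covariates (sex score, column-name number, marker scores), the Xist-positive libraries (at least 100 Xist counts), and libraries left out. The sex score takes Xist (log2 CPM) off the average of 4 Y-linked genes (Uty, Kdm5d, Eif2s3y, Ddx3y).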

Additional observations from a re-analysis of the deposited data

Results flagged for a closer look

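Among 32 groups of values, the 10 genes of the family and the 6 called pathway genes in each genotype, 5 held a library far from the others; chance gives about 1 in 20. Spred2 was at 4.62 CPM in Het 3, against 3.02 CPM in the next Het library. Dusp5 was at 1.67 CPM in WT 2, which is 25 counts, against 0.367 CPM in the next WT library. Fgfr2 was at 12.9 CPM in WT 1 (next 6.24 CPM) and at 37.3 CPM in Het 5 (next 23.4 CPM), each the highest of its group. Pdgfa was at 53.3 CPM in WT 4, the lowest of WT (next 60.5 CPM).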

How the results depend on the processing

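Of the family, Spry2 passed in all 30 alternatives and Spry4 in 26, both with the same sign throughout; Dusp6 and Etv5 stayed positive in all 30 and passed in 4 and 1, in each case counting the threshold of 0.1; at 0.05 Etv5 passed in none. Members called higher numbered 1 (main 2) among Xist-positive libraries and with the sex, endothelial or cell cycle score, and 4 at a threshold of 0.1; none was called lower in any alternative. All genes called (742) came to 1295 with DESeq2, 332 with the replicate block, 122 with the sex score, 34 among Xist-positive libraries, 432 without WT 1 and WT 2, 415 with the column-name number, 221 and 17 with the endothelial and cell cycle scores, and 1290 at a threshold of 0.1. Pathway genes called higher and lower (4 and 2) came to 7 and 6 with DESeq2, 2 and 1 with the block, 2 and 1 with the sex score, 1 and 0 among Xist-positive libraries, 0 and 0 with the cell cycle score, and 7 and 5 at 0.1. Those called higher were 2 with the endothelial score, and those called lower 1 without WT 1 and WT 2 or with the column-name number. With 1 library left out the ranges were 458 (without WT 2) to 853 for all genes, 2 to 3 for members higher, 0 for members lower, 4 to 5 and 1 to 3 for pathway genes, and -0.09 to 0.01 for the median r of pairs.

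Signs changed only for members that did not pass. Spred2 became positive with voom sample weights (0.040), the block (0.080), the sex score (0.060), the endothelial score (0.15), the cell cycle score (1.20), without WT 1 and WT 2 (0.33), and without WT 1, WT 2, Het 5 or Het 6 (0.0096 to 0.078). Spry1 became negative with the sex score (-0.072), among Xist-positive libraries (-0.084), with the skeletal muscle score (-0.070) and without WT 3 (-0.077, against up to 0.41 with other libraries left out). With the cell cycle score Spred1 was -0.25 and Dusp4 0.14. The cause was not tested.

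The replicate numbers are shared by WT and Het in the labels, but same-numbered libraries did not deviate together (correlations -0.20 to 0.06 over 5 pairs), so they give no pairing; the block, fitted without Het 6, kept Spry2 (1.06) and Spry4 (1.28) called, while Etv1 (0.88, adjusted p = 0.0573), Pdgfa (0.53, adjusted p = 0.0583) and Dusp10 (-0.69, adjusted p = 0.152) did not pass. Depth limits Dusp4, Dusp5 and Etv4, at 25 counts or fewer per library.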
